A study of Mus musculus with 4 samples.

Results

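Oncostatin M (OSM) was followed over time in PDVC57 keratinocytes, a transformed mouse line, by setting the array of cells kept with the cytokine for 24 h against the array of cells kept with it for 6 h. The series holds 4 Affymetrix arrays of total RNA, 1 per condition: non stimulated (NS) at 6 h, OSM at 6 h, NS at 24 h and OSM at 24 h. All 4 cultures were in DMEM-F12 with 0.1% FBS, so low serum was common to every condition, and the OSM cultures had recombinant murine OSM at 10 ng/ml. The cells are a single transformed line, and no label says whether the 4 cultures belonged to separate experiments. For each of 22180 genes the probe set (the group of probes read together for 1 transcript) whose mean over all 4 arrays was highest was taken. A gene was kept where its intensity lay above 20, the lowest value in the table, on either OSM array, which left 8161 genes. Their ratios are log2 of the OSM 24h intensity over the OSM 6h intensity, with 1 array a side. No fold below therefore has a replicate error or a p-value, and precision is limited by there being so few arrays.

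OSM is a cytokine of the interleukin-6 family that binds a receptor made of OSMR and the shared chain gp130 (Il6st), and signals through JAK kinases to STAT3 and through MAP kinases. In skin it is made by infiltrating immune cells, and keratinocytes answer it with inflammatory and antimicrobial genes, changes of differentiation, and feedback by SOCS3. A time ratio under OSM holds both what the cytokine does between the times and what the culture itself does in low serum, so the NS arrays of the same times were read beside it.

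Between 72.51% and 72.96% of the 41345 probe sets stood at the floor of 20 on each array. Of 13 keratinocyte identity markers 12 had a probe set and all 12 lay above the floor. Their summed intensities were 4064 (NS 6h), 4272 (OSM 6h), 4274 (NS 24h) and 4635 (OSM 24h). These markers include Krt14 and Trp63 but also the simple epithelial keratins Krt8 and Krt18. Other keratinocyte genes, among them Krt15, Krt1, Krt10, Krt16, Lor and Flg, were at the floor on every array. The mesenchymal gene Vim read 1072, 1131, 1168 and 1259 in that order of arrays. Immune, melanocyte and endothelial markers were at the floor on every array. Of 38 markers of those 3 cell types and of fibroblasts, only Fbln1, a matrix protein gene of fibroblasts, lay above it. In a bulk sample, fewer cells of a kind and less RNA per cell cannot be told apart.

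Most genes differed little between the 2 OSM arrays. The ratio had a median of 0.03 and an SD across genes of 0.23 on the log2 scale, and its 5th and 95th percentiles were -0.31 and 0.41. At least 2-fold higher intensities at 24 h were found in 18 of 8161 genes (0.221%), and at least 2-fold lower intensities in 4 genes (0.049%). At 1.5-fold these counts were 154 genes higher (1.89%) and 40 lower (0.49%). The threshold of 2-fold falls between the collagen enzyme P4ha1, the weakest of the 18 at 2.13-fold, and the cytokine subunit Il23a at 1.97-fold. On the lower side it falls between Fam171b at 2.00-fold and the tRNA methyltransferase Mettl1 at 1.93-fold. By mean OSM intensity, 5 of the 18 higher genes were among the 1923 genes at 20 to 40. Another 10 were among the 2614 genes at 40 to 100, and 3 among the 2964 at 100 to 400. None was among the 660 genes at 400 or more, a small group beside a share of 0.221% over all genes. Of the 4 lower genes 2 lay at 40 to 100 and 2 at 100 to 400.

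**Figure D1:**
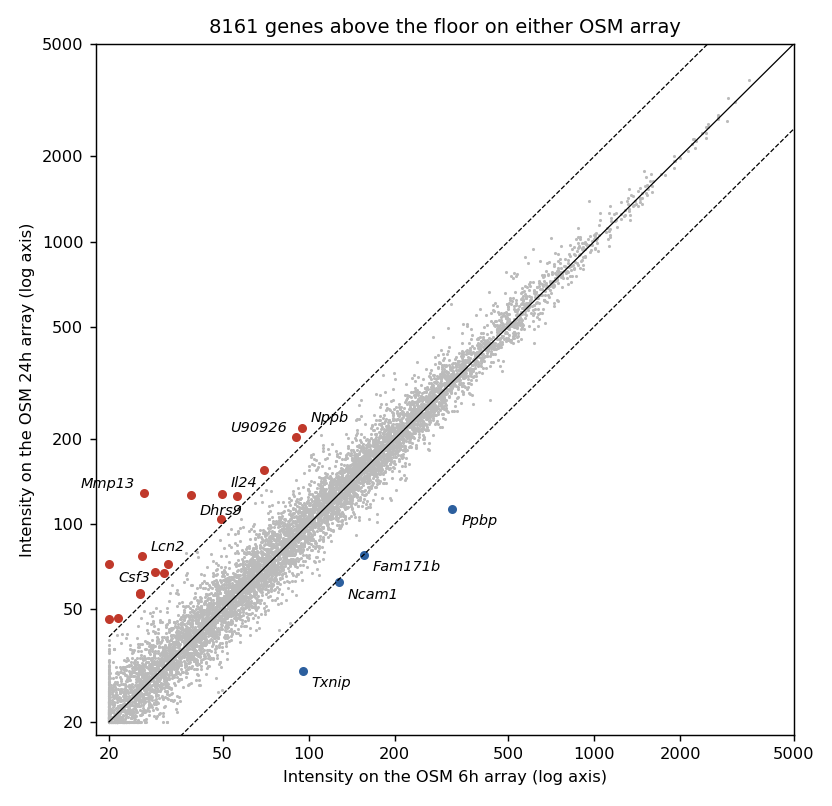
Each grey point is 1 of the 8161 genes, with its intensity on the OSM 6h array (x axis, log scale) and the OSM 24h array (y axis, log scale); the solid line marks equal values, the dashed lines 2-fold, and the named genes past 2-fold are red (higher at 24 h) or blue (lower). The red points lie in the lower part of the intensity range, and Txnip and Ppbp lie farthest below the diagonal.

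The gene with the highest ratio under OSM was Mmp13, which encodes collagenase 3, a matrix metalloproteinase of wound-edge keratinocytes. Its intensity was 20 (the floor) on the NS 6h array, 26.4 with OSM at 6 h, 102.6 in NS at 24 h and 128.6 with OSM at 24 h, a ratio under OSM of 2.28 (4.86-fold). Both 24 h arrays were thus far above both 6 h arrays, and the NS pair gave at least 5.13-fold. F3, which encodes tissue factor, the starter of blood coagulation, had the same order of times: 20, 21.6, 50.5 and 46.8 on the NS 6h, OSM 6h, NS 24h and OSM 24h arrays, 2.17-fold under OSM. Slpi, an inhibitor of neutrophil elastase, read 20, 31.2, 48.2 and 67.3 in that order of arrays, 2.16-fold under OSM. Nppb, which encodes the natriuretic peptide BNP, read 60.2, 94.9, 175.0 and 219.6, 2.31-fold under OSM and 2.91-fold without it. For these genes the arrays separate first by time, and the OSM array was the higher of its time except for F3 at 24 h.

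Among the secreted signals, Csf3 encodes the neutrophil growth factor G-CSF, and it was at the floor on both 6 h arrays. It stood at 41.9 in NS and 72.2 with OSM at 24 h, so the ratio under OSM is at least 3.61-fold and that without OSM at least 2.09-fold. Il24, a cytokine of the IL-10 family, read 33.5 (NS 6h), 49.7 (OSM 6h), 76.2 (NS 24h) and 127.7 (OSM 24h), 2.57-fold under OSM and 2.28-fold without. Cxcl2, a chemokine for neutrophils, read 22.0, 25.7, 70.3 and 56.5, so that it was 2.20-fold higher at 24 h under OSM although the NS 24h array was the highest of the 4. Fst, which encodes follistatin, an inhibitor of activins, read 26.9, 56.3, 41.7 and 125.4. Here the 2 OSM arrays were the 2 highest, and the ratio was 2.23-fold under OSM against 1.55-fold without. Ppbp, which encodes a CXC chemokine best known from platelets, went the other way, with 275.2, 318.5, 117.2 and 113.7. It was 2.80-fold lower at 24 h under OSM and 2.35-fold lower without it.

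The OSM 24h array was the highest of the 4 in 16 of the 18 genes, which choosing genes by a high value there favours. Lcn2, Dhrs9, Gsta4 and Ifi209 were among them. Lcn2, which encodes lipocalin 2, a protein that withholds iron from bacteria, read 20 (NS 6h), 26.1 (OSM 6h), 20.7 (NS 24h) and 77.1 (OSM 24h). Its ratio was 2.96-fold under OSM, while the NS pair stood at or next to the floor. Dhrs9, a retinol dehydrogenase of the retinoic acid pathway, read 29.5, 38.8, 49.4 and 126.5, 3.26-fold under OSM and 1.67-fold without. Gsta4, a glutathione transferase for products of lipid peroxidation, read 62.8, 70.1, 78.5 and 155.2, 2.21-fold and 1.25-fold. Ifi209, an interferon-inducible gene of the p200 family, read 34.8, 29.1, 42.6 and 68.0, 2.34-fold and 1.23-fold. The ratio under OSM was the larger of both in Dhrs9, Gsta4 and Ifi209. For Lcn2 the NS ratio is a bound (at least 1.04-fold), so the larger cannot be told. With bounds taken at their values, the ratio under OSM was the larger in 12 of the 18 genes. Choosing genes by that ratio favours this count.

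Genes of the hypoxia response were among those past 2-fold. Egln3, a prolyl hydroxylase that marks HIF for destruction, was at the floor on both 6 h arrays and at 36.7 (NS) and 46.2 (OSM) at 24 h, at least 2.31-fold under OSM. P4ha1, the catalytic subunit of collagen prolyl hydroxylase, read 51.0 (NS 6h), 49.2 (OSM 6h), 85.9 (NS 24h) and 104.6 (OSM 24h), 2.13-fold under OSM. Gsap, a protein that binds gamma-secretase, read 31.8, 32.2, 71.9 and 72.4, so that OSM and NS stood within 1 intensity unit of each other at both times. U90926 read 39.3, 90.3, 86.1 and 202.9, a ratio of 2.25-fold under OSM and 2.19-fold without, with both OSM arrays above the NS array of the same time. Tmc7, of the transmembrane channel-like family, read 22.0, 25.7, 37.6 and 57.3, 2.23-fold under OSM. The last of the 18, the predicted gene Gm4610, had 2.13-fold under OSM and 1.03-fold without and is not described further. With the floor raised from 20 to 40, Csf3, Lcn2, Ifi209, Egln3, Gsap, Tmc7, Cxcl2, F3, Slpi and Gm4610 were no longer counted at 2-fold. Their OSM 6h values are then at the floor, so that their log2 ratios are lower bounds, which were 0.85, 0.95, 0.77, 0.21, 0.86, 0.52, 0.50, 0.23, 0.75 and 0.98.

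Intensities at least 2-fold lower at 24 h under OSM were found in only 4 genes. OSM 24h was the lowest array in all 4, which choosing genes by this ratio favours. Txnip, whose protein binds thioredoxin and limits glucose uptake, read 106.4 (NS 6h), 95.5 (OSM 6h), 56.4 (NS 24h) and 30.4 (OSM 24h). It was 3.14-fold lower under OSM and 1.89-fold lower without. Ncam1, a cell adhesion molecule, read 146.9, 127.8, 84.8 and 62.3, 2.05-fold lower under OSM and 1.73-fold lower without. Fam171b read 231.9, 156.0, 101.8 and 77.9, 2.00-fold lower under OSM and 2.28-fold lower without. Together with Ppbp, these genes had both 24 h arrays below both 6 h arrays.

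**Figure D2:**
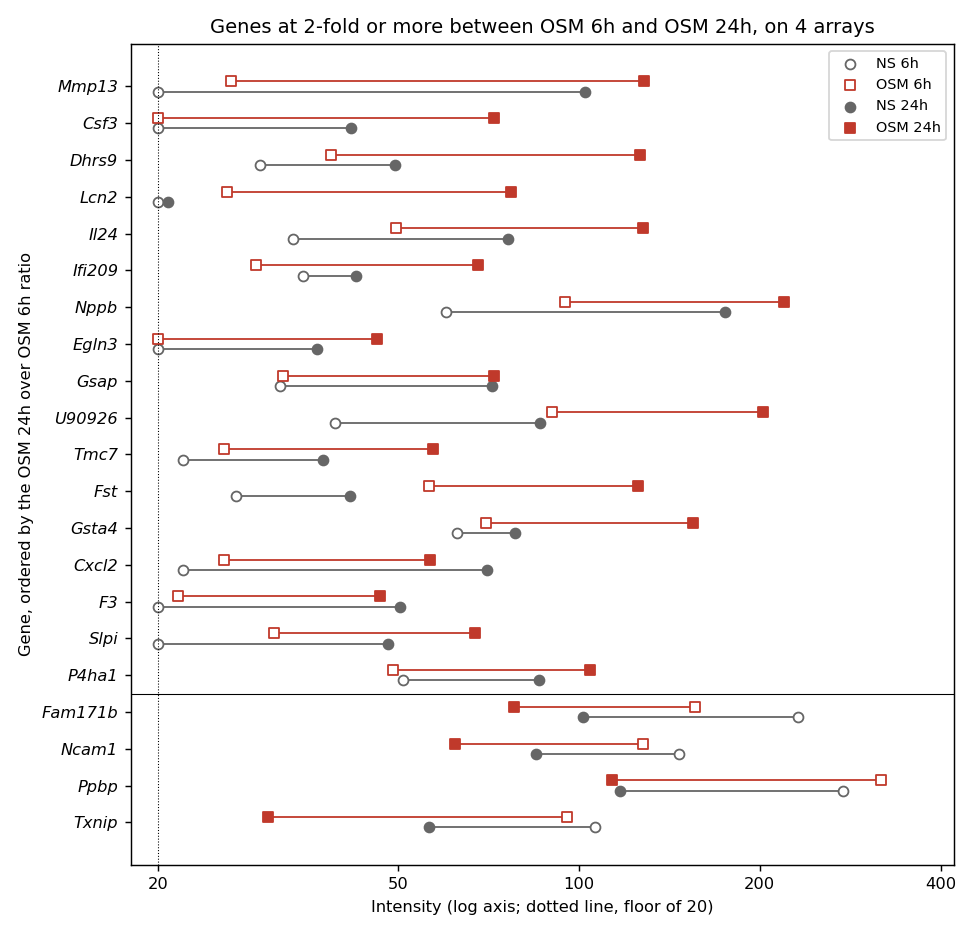
Intensity (x axis, log scale) of the 17 named genes above 2-fold (over the horizontal line) and the 4 below it, on the NS arrays (grey circles) and OSM arrays (red squares), open at 6 h and filled at 24 h, with a line joining the 2 times. In Mmp13, Gsap and F3 the grey and red spans run alike, while in Lcn2, Ifi209 and Gsta4 the red span is much the longer.

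The bases just before the start sites are shown for 5 of the higher genes, picked because they hold letters of AP-1 or NF-kB. Slpi, which holds the E-box letters, is not shown. RefSeq windows of the 250 bases before the start (GRCm38.p6) were found for 13 of the 17 named higher genes and 2 of the 4 lower ones, and 6581 of the 8161 genes had 8323 such windows. Both strands were searched for TGANTCA (AP-1), TTCNNNGAA (STAT), GGGAN directly followed by TTTCC (NF-kB), CACGTG (E-box) and the E2F letters TTTCCCGC, TTTGGCGC, TTTCGCGC and TTTGCCGC. The AP-1 letters were in 4 of the 13 windows (30.8%), those of Mmp13, Dhrs9, Ifi209 and F3, against 4.40% of all windows. They were also in 1 of the 2 windows of lower genes, that of Ppbp. The NF-kB letters were in 1 of 13, that of Cxcl2 (all windows, 0.445%), and the E-box in 1 of 13, that of Slpi (9.24%). The STAT letters (5.60% of all windows) and the E2F letters (3.78%) were in none of the 13. A match describes the letters only. The windows lie at chr9:7272264-7272513 (Mmp13), chr2:69380212-69380461 (Dhrs9), chr1:173630609-173630858 (Ifi209), chr3:121723287-121723536 (F3) and chr5:90903649-90903898 (Cxcl2), all on the plus strand. Capitals mark the AP-1 letters, whose first base is at -35 (Mmp13), -18 (Dhrs9), -245 (Ifi209), and -146 and -135 (F3) from the start, and in Cxcl2 the NF-kB letters, at -97. No capital run overlaps another.
Mmp13: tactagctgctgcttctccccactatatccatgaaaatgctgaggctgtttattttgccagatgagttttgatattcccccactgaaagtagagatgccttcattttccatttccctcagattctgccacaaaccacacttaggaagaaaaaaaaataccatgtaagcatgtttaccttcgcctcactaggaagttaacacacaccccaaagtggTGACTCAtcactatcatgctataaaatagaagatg
Dhrs9: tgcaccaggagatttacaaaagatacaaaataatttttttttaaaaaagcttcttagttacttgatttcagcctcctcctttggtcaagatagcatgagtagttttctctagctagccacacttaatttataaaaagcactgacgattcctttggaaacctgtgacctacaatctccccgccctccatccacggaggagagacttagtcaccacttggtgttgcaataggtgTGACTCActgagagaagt
Ifi209: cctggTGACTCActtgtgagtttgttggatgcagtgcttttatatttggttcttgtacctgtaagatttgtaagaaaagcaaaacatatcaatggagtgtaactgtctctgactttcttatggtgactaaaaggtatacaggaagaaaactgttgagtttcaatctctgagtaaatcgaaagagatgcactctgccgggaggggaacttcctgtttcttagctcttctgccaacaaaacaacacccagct
F3: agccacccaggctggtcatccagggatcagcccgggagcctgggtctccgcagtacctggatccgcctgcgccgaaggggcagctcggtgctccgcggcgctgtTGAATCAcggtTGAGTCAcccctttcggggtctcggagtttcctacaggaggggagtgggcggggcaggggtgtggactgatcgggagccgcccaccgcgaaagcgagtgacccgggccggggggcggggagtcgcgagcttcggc
Cxcl2: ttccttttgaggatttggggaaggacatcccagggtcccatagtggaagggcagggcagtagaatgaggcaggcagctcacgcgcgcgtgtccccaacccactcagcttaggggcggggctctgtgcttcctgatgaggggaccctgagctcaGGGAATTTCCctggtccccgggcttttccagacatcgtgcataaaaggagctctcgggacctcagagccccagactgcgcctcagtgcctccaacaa

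Culture without OSM over the same hours gave a larger number of genes past 2-fold. Of 8198 genes above the floor on either NS array, 60 were at least 2-fold higher at 24 h (0.732%) and 4 at least 2-fold lower (0.0488%). At 1.5-fold there were 235 higher (2.87%) and 54 lower (0.659%). The 2 pairs share no array. All 18 genes higher under OSM had an NS ratio above 0, with a median of 0.97 beside 1.17 under OSM. The NS ratio is a bound in 6 of them (Mmp13, Csf3, Lcn2, Egln3, F3 and Slpi). The OSM ratio is a bound in 2 (Csf3 and Egln3). Both medians, and the NS count at 2-fold given next, are therefore minima. The 18 genes were chosen on the OSM ratio, which by itself favours a larger median under OSM. Of them 9 were also 2-fold higher in NS, which is 50% of the OSM list and 15% of the NS list. Of the 4 lower genes 2 were also 2-fold lower in NS, 50% of each list, and all 4 had an NS ratio below 0. The NS ratio was not above 0 for 8 of the 154 genes at least 1.5-fold higher under OSM, and not below 0 for 3 of the 40 lower ones. At 1.5-fold, 82 of the 154 higher genes were higher in NS too (53.2% of that list and 34.9% of the NS list), and 11 of the 40 lower genes (27.5% and 20.4%). No gene was 1.5-fold or more higher in one pair and as much lower in the other. Across the 7717 genes that every array measured above the floor, both time ratios had a Pearson correlation of 0.63 and a Spearman correlation of 0.59, and 5482 genes (71.0%) had the same sign. Genes are not independent replicates, and this is a description of 4 arrays.

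Seen as whole arrays, those of the same time were the closest. The SD across genes of the log2 ratio was 0.18 between NS and OSM at 6 h and also between NS and OSM at 24 h. It was 0.23 between the OSM arrays, 0.26 between the NS arrays, and 0.25 to 0.28 between arrays that differed in both. Among the 154 genes at least 1.5-fold higher under OSM, the OSM 24h array was the highest of the 4 in 114 and the NS 24h array in 38. Among the 40 lower genes OSM 24h was the lowest array in 29 and OSM 6h the highest in 30. Both sets were chosen on the ratio of OSM 24h over OSM 6h, which by itself favours these counts.

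Genes whose time ratio was larger under OSM than without it were looked at through the difference of both log2 ratios, which had an SD of 0.21 across genes and which 1 array per condition does not allow to be tested. The genes compared are the 7717 with every array above the floor, which leaves out Lcn2, whose NS 6h value is at the floor (0.05 in NS as a bound, 1.57 under OSM). Serpinb2, which encodes an inhibitor of plasminogen activators, read 78.3 (NS 6h), 149.6 (OSM 6h), 70.8 (NS 24h) and 263.8 (OSM 24h), a ratio of 0.82 under OSM and -0.15 without. Both OSM arrays were above both NS arrays. Dhrs9 (difference 0.96) and Ifi209 (0.93), described above, were among the 10 largest. S100a7a, a mouse gene of the psoriasin group of antimicrobial S100 proteins, read 36.4, 35.1, 28.4 and 52.5, a ratio of 0.58 under OSM and -0.36 without. In 7 of these 10 genes the OSM 6h array was the lowest of the 4, which ranking on the difference favours. Klhl28, with the largest difference among those genes (1.07), read 35.0, 22.2, 30.6 and 40.7, and the GTPase exchange factor gene Ngef (0.84) read 36.0, 32.5, 33.1 and 53.7. The remaining 4 were Gm4610 (1.05), the hair keratin-associated gene Krtap4-13 (0.85), the zinc finger gene Zfp948 (0.84) and the microRNA gene Mir185 (0.84). Mir185 read 42.7, 27.2, 37.1 and 42.4, so that only the OSM 6h array was low, and with a floor of 40 its difference became 0.18.

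On the other side 10 of those 7717 genes passed 1 log2 unit, against 2 above 0. In all 10 the NS 24h array was the highest of the 4, which ranking on the difference favours. The floor filter leaves out genes on this side too. Csf2 read 20 (NS 6h), 20 (OSM 6h), 76.7 (NS 24h) and 20 (OSM 24h). Tslp read 20, 20, 48.9 and 22.8, at least 0.19 under OSM and at least 1.29 without. Cxcl1, a neutrophil chemokine, read 34.9 (NS 6h), 68.5 (OSM 6h), 189.8 (NS 24h) and 120.1 (OSM 24h), a ratio of 0.81 under OSM beside 2.44 without. OSM was thus the higher array at 6 h and the lower one at 24 h. Neurl3, a ubiquitin ligase, read 84.8, 71.5, 292.8 and 92.8, a ratio of 0.38 under OSM and 1.79 without. Csf1, the growth factor of macrophages, read 68.9, 68.0, 136.9 and 65.4, so that only the NS 24h array stood apart. The heparan sulfate proteoglycan gene Gpc4 had the same shape, with 55.3, 53.6, 128.8 and 58.2. Prkar2b, a regulatory subunit of protein kinase A, read 39.1, 45.5, 90.1 and 44.3. Cbr2 (a carbonyl reductase), Tmem176b, 9930111J21Rik2 and Acpp (an acid phosphatase) had ratios of 0.00, -0.10, 0.55 and 0.27 under OSM and 1.22, 1.12, 1.64 and 1.29 without. H1f2, a linker histone, was the one of the 10 at least 1.5-fold lower at 24 h under OSM, with 86.1, 107.1, 119.8 and 69.4 and ratios of -0.63 and 0.48.

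**Figure D3:**
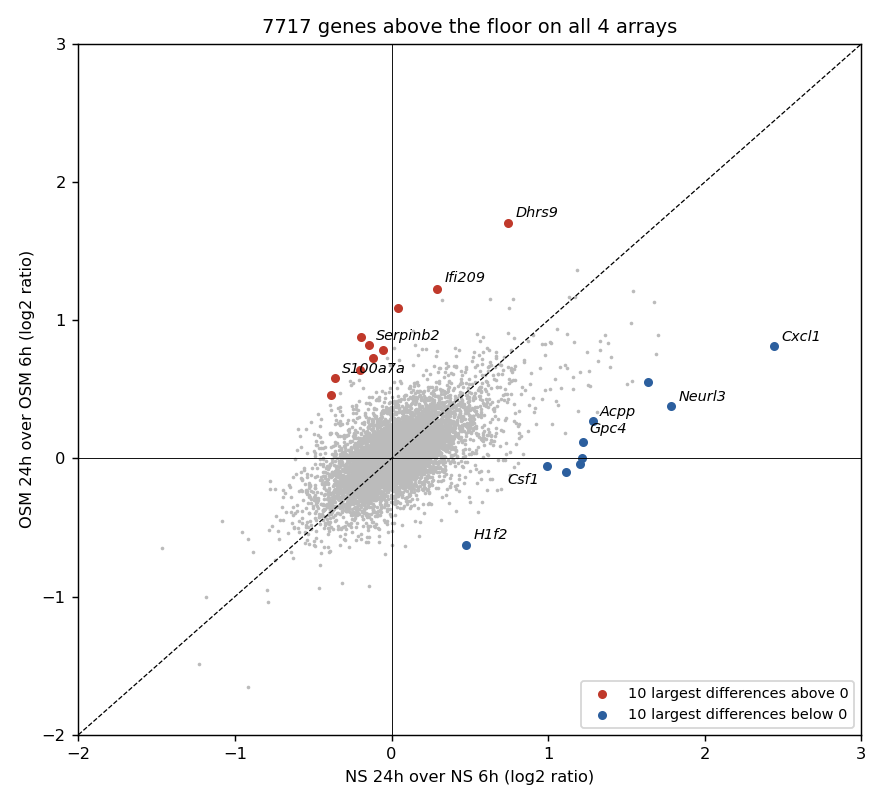
Log2 ratio of 24 h over 6 h without OSM (x axis) and with OSM (y axis) for the 7717 genes measured above the floor on every array; the dashed line marks equal ratios, and the 10 genes with the largest differences on each side are red (larger with OSM) and blue (larger without). Cxcl1 lies at 2.44 without OSM and 0.81 with it, and Csf1 and Gpc4 lie near 0 on the OSM axis.

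The pathway that OSM itself uses differed little between the times under OSM. Of 29 measured genes of gp130 and STAT3 signalling, 23 had a ratio above 0, 2 were 1.5-fold higher, none was 1.5-fold lower, and the median was 0.14, beside 0.03 and 56.7% above 0 for all genes. In NS the same list had 25 of 30 above 0, 4 at least 1.5-fold higher and a median of 0.26, beside 0.02 and 53.3% above 0 for all genes. Osmr, the receptor subunit for OSM, read 21.7 (NS 6h), 120.8 (OSM 6h), 22.7 (NS 24h) and 134.7 (OSM 24h), a ratio of 0.16. Il13ra1, which encodes part of the IL-13 receptor, read 20, 83.7, 27.8 and 86.2, a ratio of 0.04. Both genes thus stood at nearly the same raised level on the 2 OSM arrays. The transcription factor Stat3 (237.0, 474.3, 311.9 and 497.6) and Bcl3, a nuclear partner of NF-kB (24.6, 104.8, 45.1 and 120.5), had the same shape, with ratios of 0.07 and 0.20. Socs3, the feedback inhibitor of gp130 signals, read 20, 39.7, 22.1 and 54.9, a ratio of 0.47. The 2 members past 1.5-fold were the kinase Pim1 (0.83 under OSM, 0.96 without) and Plaur, the urokinase receptor (0.68 and 0.63).

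The counts of the lists that follow are to be read against the shares over all genes, which were 1.89% at least 1.5-fold higher and 56.7% above 0 under OSM, and 2.87% and 53.3% in NS. Some genes, such as Bcl3, Plaur and Dsc2, belong to several lists and are counted in each. Gene lists for inflammation had medians above 0 in both pairs, and for most of them the NS median was the larger. Of the 6 measured neutrophil chemokines and growth factors 5 were above 0 under OSM, with a median of 0.69, beside 1.54 in NS over 7 members. Csf2 (at least 1.94) was measured only in NS, so these medians are not over the same genes. Cxcl5, a chemokine that binds CXCR2, read 367.6 (NS 6h), 523.3 (OSM 6h), 1067.0 (NS 24h) and 773.6 (OSM 24h). The interleukins had a median of 0.42 over 10 members under OSM and 1.19 over 9 in NS, with 4 and 7 members at least 1.5-fold higher. Clcf1 (at least 0.07) was measured only under OSM. Il1a, an alarm cytokine stored in keratinocytes, read 465.0, 609.6, 1069.7 and 942.0, and Il23a read 30.8, 40.6, 89.1 and 80.0. Lif, another cytokine of the interleukin-6 family, had ratios of 0.79 and 1.33. In Cxcl5, Il1a and Il23a the OSM array was higher than NS at 6 h and lower at 24 h. All 15 measured NF-kB feedback genes were at or above 0 under OSM, with a median of 0.34. In NS the median was 0.47 over 17 genes, with Nfkbie and Birc2 measured only there. Nfkbia, the inhibitor IkB alpha, had ratios of 0.71 and 1.32. With a floor of 40 the medians became 0.56 (OSM) and 0.88 (NS) for neutrophil chemokines, and 0.80 and 0.96 for interleukins. Of 25 antimicrobial and acute phase genes with a probe set only 5 lay above the floor on any array. The antimicrobial list had a median of 0.58 over 5 members under OSM and 0.27 over 4 in NS, which are not the same genes. S100a7a had the larger ratio under OSM, and Slpi (1.11 and at least 1.27) and the protease inhibitor gene Wfdc2 (0.07 and 0.49) the larger one in NS. Lcn2 had 1.57 under OSM and at least 0.05 in NS. Saa3, an acute phase apolipoprotein, was at the floor on 3 arrays and entered only through its value of 29.9 with OSM at 24 h.

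The measured genes of antigen presentation and the measured interferon-stimulated genes had medians below 0 under OSM and above 0 without it. The 9 measured genes of MHC class I presentation had a median of -0.09 under OSM with 4 above 0, and of 0.23 in NS with 9 above 0. The highest of them was H2-T23, a non-classical class I gene, with 0.46 and at least 1.06. H2-K1, a class I heavy chain, read 303.5 (NS 6h), 322.6 (OSM 6h), 329.9 (NS 24h) and 252.1 (OSM 24h). Psmb10, a subunit of the immunoproteasome, read 52.5, 66.2, 78.3 and 53.3, so that the OSM array was above NS at 6 h and below it at 24 h. Of 24 interferon-stimulated genes with a probe set only 7 lay above the floor on any array. Isg15, Ifit1, Mx1 and Irf7 were among those at the floor on every array. The 7 measured genes had medians of -0.05, close to that of all genes, and 0.36. Stat2, a mediator of interferon signals, was the highest of them, at least 0.58 under OSM and 0.45 in NS. Among them Bst2, which tethers virus particles to the cell, read 94.8, 124.7, 144.5 and 106.6. Targets of YAP and SRF, factors that sense cell shape, had medians of -0.02 under OSM and 0.21 in NS over 18 genes. Thbs1, a secreted matrix glycoprotein of that list, read 588.7, 382.3, 975.2 and 390.3, a ratio of 0.03 under OSM and 0.73 without.

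The metabolic lists had medians above 0 in both pairs, and for sterol synthesis the NS median was the larger. Of 28 measured genes of glycolysis and hypoxia 26 were above 0 under OSM with a median of 0.38, and 7 (all genes, 1.89%) were at least 1.5-fold higher and none lower. In NS the median was 0.32 over 27 genes, all above 0, with 9 at least 1.5-fold higher. Slc2a1, the glucose transporter GLUT1, read 428.5 (NS 6h), 490.1 (OSM 6h), 657.1 (NS 24h) and 777.4 (OSM 24h), and Pfkl, a phosphofructokinase, read 159.9, 172.8, 254.5 and 289.3. Aldoc, an aldolase, had 31.4, 37.5, 70.3 and 67.3. In sterol synthesis 19 of 21 genes were above 0 in each pair, with medians of 0.34 under OSM and 0.49 in NS, and 1 and 8 genes at least 1.5-fold higher. Cyp51, the sterol demethylase, read 305.4, 343.6, 509.4 and 473.9.

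Several lists for growth had medians below 0. Of 52 measured genes of ribosome biogenesis and Myc targets, 47 were below 0 under OSM and 47 in NS, with medians of -0.20 and -0.26, although only Rrp12 among them was 1.5-fold lower under OSM. Rrp12, which exports and matures ribosomal subunits, read 192.8 (NS 6h), 219.6 (OSM 6h), 132.6 (NS 24h) and 145.9 (OSM 24h). Cad, the enzyme that begins pyrimidine synthesis, read 185.8, 181.2, 128.3 and 123.9. Outside the list, the RNA acetyltransferase Nat10 and the RNA polymerase I subunit gene Cd3eap, both chosen after their values were seen, had ratios of -0.68 and -0.72 under OSM. Of 34 genes of the integrated stress and amino acid response 30 were below 0 in each pair, with medians of -0.16 and -0.24. Trib3, a pseudokinase induced by ATF4, read 176.6, 195.1, 95.5 and 122.1, and Ddit3, which encodes CHOP, read 80.2, 72.2, 41.4 and 49.8. DNA replication genes had medians of -0.05 and -0.13 over 51 genes, with none at 1.5-fold. The 64 mitosis genes had medians of 0.03 and 0.06, and the former dropped just below 0 with quantile normalization or centring. The 16 housekeeping genes had medians of 0.05 and 0.06.

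**Figure D4:**
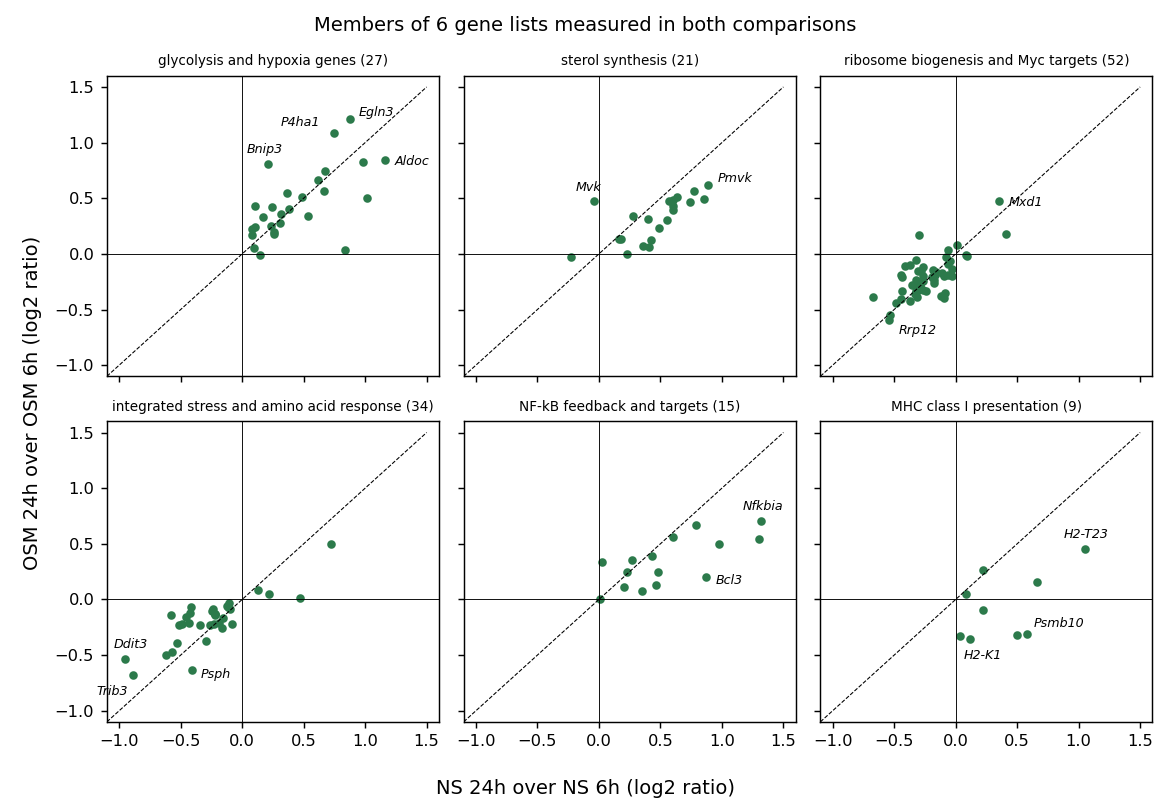
Log2 ratio of 24 h over 6 h without OSM (x axis) and with OSM (y axis) for the members of 6 gene lists measured in both pairs, with the number of members in brackets; the dashed line marks equal ratios. Glycolysis and ribosome biogenesis members scatter about the line, above and below 0, while NF-kB and MHC class I members lie mostly under it.

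Of 53 differentiation genes with a probe set, 15 were above the floor on any array and could be read. Of these 15, 14 were above 0 under OSM and 4 were at least 1.5-fold higher, with a median of 0.30 in both pairs (NS over 14 genes, 1 at 1.5-fold). Grhl3, a transcription factor of the skin barrier, read 22.1 (NS 6h), 25.9 (OSM 6h), 55.5 (NS 24h) and 46.6 (OSM 24h). Abca12, the lipid transporter of lamellar granules, read 30.6, 36.6, 37.5 and 62.6, highest with OSM at 24 h. Of 21 genes of desmosomes and tight junctions 5 were at least 1.5-fold higher under OSM (all genes, 1.89%) and 1 of 20 in NS (2.87%), with medians of 0.22 and 0.27. These 5 were Cldn4 (0.93), a claudin of tight junctions, and the desmosome genes Pkp2 (0.77), Dsc3 (0.75), Dsg2 (0.74) and Dsc2 (0.67). Cldn4 read 303.0, 315.6, 630.2 and 603.1, and Dsc3 read 35.6, 34.7, 40.1 and 58.4. Both measured wound keratins were higher with OSM than without at each time. Krt17 read 174.4, 295.5, 238.9 and 382.3, and Krt6a read 223.1, 487.6, 148.7 and 545.0, a ratio of 0.16 under OSM and -0.59 without.

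Proteases, growth factor ligands and feedback genes are given last. Of 21 measured matrix proteases and inhibitors 6 were at least 1.5-fold higher under OSM (all genes, 1.89%) and 5 of 20 in NS (2.87%), with a median of 0.22 in both pairs. Beside Mmp13, Serpinb2 and Plaur these were Mmp10 (stromelysin 2), Adam8 (a sheddase) and Plat (tissue plasminogen activator), with ratios of at least 0.72, 0.70 and 0.63, the first being a bound. Ereg, which encodes the EGF receptor ligand epiregulin, read 65.5 (NS 6h), 102.0 (OSM 6h), 111.3 (NS 24h) and 176.2 (OSM 24h). Under OSM it was the only one of 9 measured genes of EGF receptor signalling at 1.5-fold. In NS it (0.76) and Lrig1 (0.88), a brake on that receptor, passed, and the median of those genes was 0.27 under OSM and 0.38 in NS. Of 18 genes of mRNA decay and MAP kinase feedback 2 passed 1.5-fold under OSM, Zfp36 (0.67) and Dusp4 (0.66). Among 17 AP-1 and immediate early genes none did, and the medians were 0.24 and 0.32. Hmox1, the heme oxygenase of the NRF2 response, read 149.8, 180.0, 129.6 and 266.7, with a ratio of 0.57 under OSM and -0.21 without. Wnt4, a secreted Wnt ligand, was lower at 24 h under OSM, with 34.8, 48.3, 31.5 and 25.5 and a ratio of -0.92 beside -0.14.

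**Figure D5:**
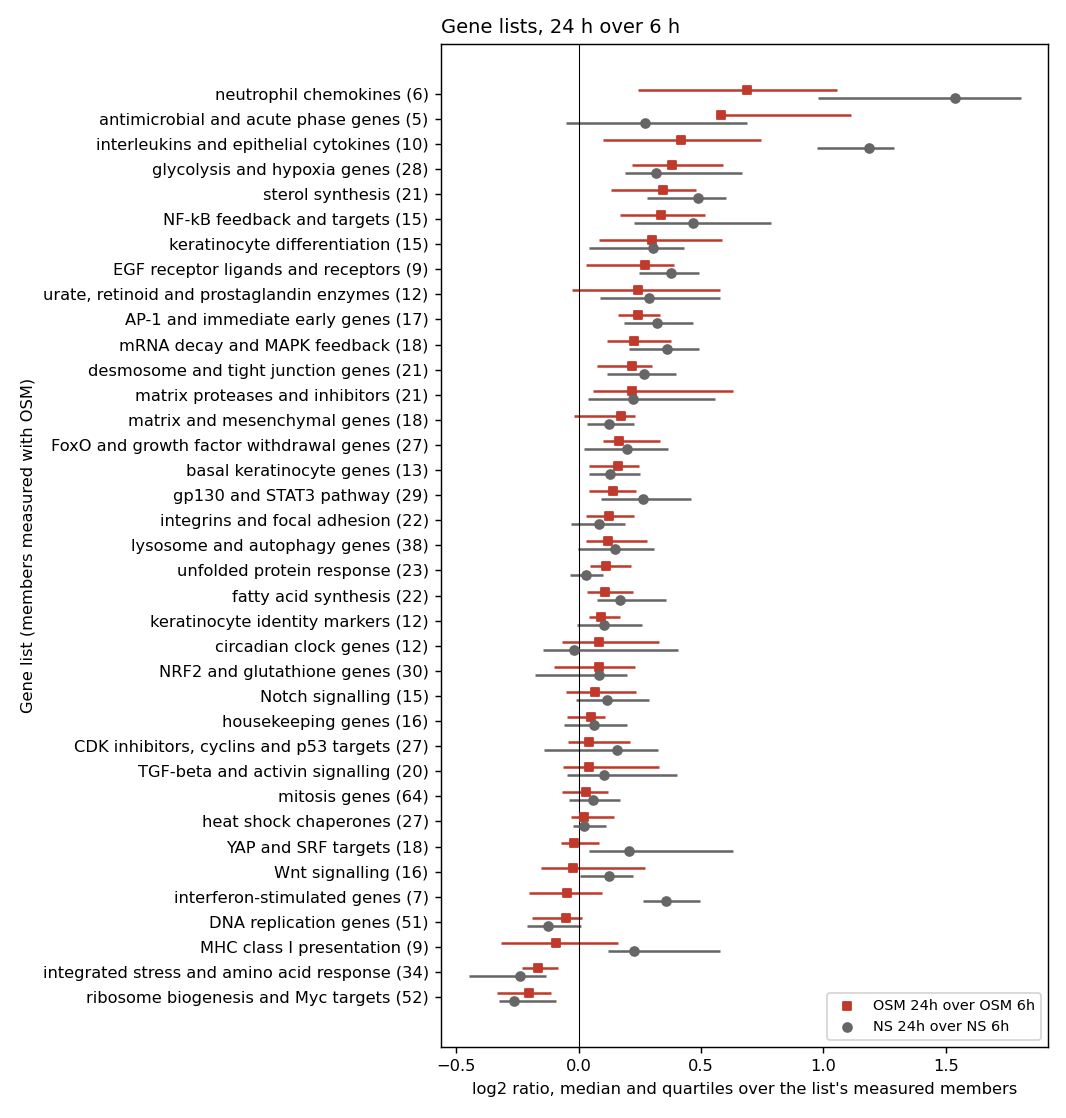
Median (marker) and quartiles (line) of the log2 ratio of 24 h over 6 h over the measured members of each gene list with at least 5 of them, with OSM (red squares) and without (grey circles); numbers in brackets are members measured with OSM. The lists run from neutrophil chemokines (0.69 under OSM) down to ribosome biogenesis (-0.20). The largest gaps between the markers are in chemokines and interleukins, whose measured members are not the same in both pairs.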

How the data were processed

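The deposited values are linear probe set intensities, 1 array per condition. The tool in the submitters' processing notes is Affymetrix Expression Console. How it normalized the arrays, and in which version, is not given in the sources used here, and the floor of 20 was found in the values. Probe sets were paired with genes through the platform annotation: 23521 had 1 gene, 1820 had several and 16004 had none, and only the first were used. log2 ratios of 1 array over 1 array were taken in Python 3.11.15 with pandas 2.3.3 on the intensities the authors deposited. A value at the floor on 1 array gives a bound, written as at least N-fold, and at the floor on both no ratio; 327 of the 8161 ratios are bounds. Nothing was tested, since no comparison has a replicate. The submitters' design used 2-fold. Genes named are up to 20 in each direction past 2-fold, without predicted genes, RIKEN clones, small RNA genes, receptors of smell and pseudogenes; the 10 largest differences on each side among genes above the floor on every array; and, as examples, members of the 44 lists with the largest ratios or a textbook role. The members and lists were chosen with earlier results of these data known. Alternatives were a floor of 40, other normalizations (quantile, centring, cyclic loess with limma 3.58.1 in R 4.3.3), other filters, probe set rules and thresholds. The counting was checked on simulated data. Promoter windows are RefSeq's and hold the bases before the start only.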

Additional observations from a re-analysis of the deposited data

Results flagged for a closer look

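Among the genes named by the rule and measured above the floor on every array, 4 had a 24 h over 6 h ratio in opposite directions with and without OSM, at 1.25-fold or more each. S100a7a had a log2 ratio of 0.58 with OSM and -0.36 without. Krtap4-13, a hair keratin-associated gene, had 0.46 and -0.39. H1f2, a linker histone, had -0.63 and 0.48. Bgn, a matrix proteoglycan, had 0.36 and -0.34. Each ratio comes from 1 array a side, and the difference was not tested.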

How the results depend on the processing

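With a floor of 40, the genes at 2-fold or more higher at 24 h were 8 with OSM (in place of 18), 38 without (in place of 60) and 3 in both (in place of 9); all 8 and all 38 were among the genes counted at the floor of 20. With only genes above the floor on all 4 arrays, 12 were higher with OSM (Mmp13, Csf3, Lcn2, Egln3, F3 and Slpi being left out), 49 without and 5 in both. At 1.5-fold, 154 were higher and 40 lower with OSM, 235 and 54 without, and 82 and 11 in both. At 3-fold, 3 were higher and 1 lower with OSM, 8 and 0 without, and 1 and 0 in both. Quantile normalization, centring, cyclic loess and the mean of probe sets each gave the same 18 and 4 genes with OSM. The correlations stayed between 0.62 and 0.67 (Pearson) and between 0.58 and 0.64 (Spearman). None of the 22 genes at 2-fold or more with OSM changed direction. Direction was not checked for the named genes under 2-fold. Of the list medians, 7 moved with the floor of 40, 2 with the filter on all arrays and 1 with the mean of probe sets. No paired analysis was possible because each condition has 1 array, so that the OSM ratio is a single pair. Folds of dim genes are limited by the floor.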
